A study of Mus musculus with 6 samples.

Results

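The cell cycle genes described here are 42 genes that drive the entry into S phase, DNA replication or mitosis, chosen by name and split by the stage at which their products act. All 42 were among the 13843 genes of the deposited table, with 9 in a G1/S class, 13 in a replication class and 20 in a mitosis class. RNA sequencing was done on heart ventricles taken from C57BL/6 mouse embryos at E12.5 (a mid-gestation stage), 1 embryo a library. Knockouts 1 and 2 and the library labelled knockout 3 were labelled as carrying 2 floxed Vhl alleles and 1 Nkx2.5 allele with Cre recombinase, while controls 1 to 3 carried 2 floxed Vhl alleles and 2 wild-type Nkx2.5 alleles. The product of Vhl tags hypoxia-inducible factors (HIF) for breakdown in well-oxygenated cells, and the Cre at Nkx2.5 is made in heart muscle progenitors and their descendants. No embryo labelled as having Cre with intact Vhl was analysed here, so Vhl, the Cre and the loss of 1 Nkx2.5 allele cannot be told apart. Per the labels, knockout 1 and control 1 came from litter 1, knockout 2 and control 2 from litter 2, the library labelled knockout 3 from litter 4 and control 3 from litter 3. The design text of the series, however, counts 3 litters.

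The targeted gene went against 1 label. Vhl was at 11.1 for knockout 1, 10.3 for knockout 2, 34.5 for the library labelled knockout 3, and 33.7, 36.3 and 38.6 for the controls. The comparison was therefore made between knockouts 1 and 2 and the 3 controls, with the library labelled knockout 3 shown apart, and since Vhl values bear on that choice, no test of Vhl is given. The 6 libraries held 9067805 to 12592902 reads, and values are reads per gene divided by 1 factor per library (effective CPM). Of the 42 genes, 41 had at least 300 reads in every library, and the lowest count was 107 reads, for Cdk6. The labelled tissue was checked with 9 cardiomyocyte markers, none of which was at 0, and their sums were 37605 and 33681 for knockouts 1 and 2, 36067 for the library labelled knockout 3, and 39178, 35030 and 31960 for the controls.

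The cell cycle runs as a relay of kinases. D-type cyclins bind Cdk4 and Cdk6 in response to growth signals, E-type cyclins bind Cdk2 to start S phase, and cyclin A and the B-type cyclins bind Cdk1 to drive mitosis. Genes of replication are switched on before S phase by E2F factors, and genes of mitosis are switched on later through an element called CHR, the cell cycle genes homology region, often beside CCAAT boxes. Ventricular muscle cells still divide at this stage of mouse development and leave the cell cycle around birth.

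The promoters of the classes carried these elements in different shares. RefSeq promoter sequences on GRCm38.p6, from 250 bases before to 50 bases after the start, were at hand for 33 of the 42 genes. They covered 6 of the 9 G1/S genes, without Ccnd1, Ccnd2 and Ccne2. The CHR letters TTTGAA or TTCGAA, on either strand, were in 12 of 15 mitosis promoters (a gene can have more than 1), 3 of 13 replication promoters and 0 of 7 G1/S promoters, against 13.8% of the promoters of genes in the table. E2F letters, searched on both strands as TTGGCGC and its variants TTCCCGC and (with other central bases) TTCGCGC or the form TTGCCGC, were in 3 mitosis promoters, 9 replication promoters and 1 G1/S promoter, against 16.4%. CCAAT was in 14, 10 and 2 of the same promoters, against 37.7%, and it can share letters with the E2F match GCGCCAA. The core of the HIF response element, ACGTG or GCGTG, was in 25 of 35 promoters of these genes, or 71.4%, against 61.2%. A match is a description of the letters and not a bound site.

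The following promoter stretches are shown because they carry the CHR letters of mitosis genes (capitals), read 5′ to 3′ on the strand of the gene, with the distance of the first capital from the start site.
Cdc20, chr4:118437329-118437388, minus strand, -18: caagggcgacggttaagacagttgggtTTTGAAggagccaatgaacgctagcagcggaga
Ccnb2, chr9:70421535-70421594, minus strand, 4: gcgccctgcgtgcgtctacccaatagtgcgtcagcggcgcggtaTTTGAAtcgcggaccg
Ube2c, chr2:164769873-164769932, plus strand, -29: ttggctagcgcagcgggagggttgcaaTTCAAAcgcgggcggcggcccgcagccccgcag
Top2a, chr11:99024180-99024239, minus strand, -23: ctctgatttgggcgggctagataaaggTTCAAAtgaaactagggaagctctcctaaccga
Bub1b, chr2:118597996-118598055, plus strand, -188: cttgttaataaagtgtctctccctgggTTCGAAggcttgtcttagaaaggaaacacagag
In Ube2c and Top2a the capitals are the same letters on the opposite strand. Capitals mark 1 match for each gene, and others can stand in the same stretch.

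For the replication class, the E2F letters (capitals) are shown in the promoters of 2 helicase subunits whose values lay on opposite sides of the controls and of both reductase subunits. In Mcm5, Mcm6 and Rrm2 they are on the opposite strand.
Mcm5, chr8:75109333-75109392, plus strand, -149: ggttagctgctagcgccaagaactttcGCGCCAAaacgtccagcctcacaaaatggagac
Mcm6, chr1:128359716-128359775, minus strand, -43: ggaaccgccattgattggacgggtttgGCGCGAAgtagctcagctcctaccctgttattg
Rrm1, chr7:102441601-102441660, plus strand, -67: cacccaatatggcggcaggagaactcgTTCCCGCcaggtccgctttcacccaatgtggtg
Rrm2, chr12:24708004-24708063, plus strand, -235: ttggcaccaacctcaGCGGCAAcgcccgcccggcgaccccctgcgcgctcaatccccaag
The promoter of Cdk1, the mitosis gene with the smallest p in the comparison below, held 2 CHR, 2 E2F and 3 CCAAT matches in the 250 bases before its start (capitals).
Cdk1, chr10:69352913-69353162, minus strand: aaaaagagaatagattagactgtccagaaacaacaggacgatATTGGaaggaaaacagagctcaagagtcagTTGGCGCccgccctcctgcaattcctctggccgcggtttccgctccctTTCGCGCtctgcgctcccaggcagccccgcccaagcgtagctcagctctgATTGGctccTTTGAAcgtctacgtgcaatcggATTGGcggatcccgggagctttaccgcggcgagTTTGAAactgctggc

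None of the 42 genes passed the threshold in knockouts 1 and 2 against the controls. In limma, fitted on log2(value + 1) over all 13843 genes with Benjamini-Hochberg adjusted p under 0.05, 0 of 42 were higher and 0 lower, where 3.01% of all genes were higher and 1.24% lower. The smallest adjusted p of limma among the 42 was 0.055, for Ccnd1. At an unadjusted p under 0.05 there were 10 of 42, 7 higher and 3 lower, where all genes gave 17.8%, with 9.74% higher and 8.05% lower. The edgeR quasi-likelihood test on recovered reads also called 0, beside 2.94% higher and 1.18% lower over all genes. DESeq2 called 4, with Ccnd1, Ccnd2 and Cdk1 higher and Rrm2 lower, where it called 3.97% of all genes higher and 1.99% lower. With litter as a block and litters 1 and 2 alone, limma called 0 of the 42, where 4.92% of all genes were higher and 3.21% lower. For comparison, 10 of 10 listed HIF targets were higher in the same limma fit, a list chosen with earlier results of these data known. Their log2 fold changes were 1.04 to 2.17, such as 2.17 ± 0.08 (SE) for the collagen hydroxylase P4ha2. Those of the 42 genes were -0.41 to 0.31, so the targets do not show that changes this small would pass.

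The precision of these values sets the observed fold change at which a gene would have passed. That is a size of the estimate, and a true change of the same size could still be missed. The smallest moderated t that passed over all genes was 4.52, which for the 42 genes corresponds to a log2 fold change of 0.35 at the median, or 1.28-fold, and of 0.29 to 0.80 over single genes. The median over all genes of the table was 0.54, or 1.46-fold. The 95% interval of limma lay within 1.5-fold in both directions for 40 of the 42 genes, against 66.7% of all genes, and the exceptions were Rrm2 and Cdt1. It lay within 2-fold for all 42 genes, against 90.0% of all genes. Each interval stands for 1 gene, not for a class, and gives the uncertainty of a difference between group means of single embryos. The variance behind it was drawn by limma towards a trend over all genes.

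**Figure D1:**
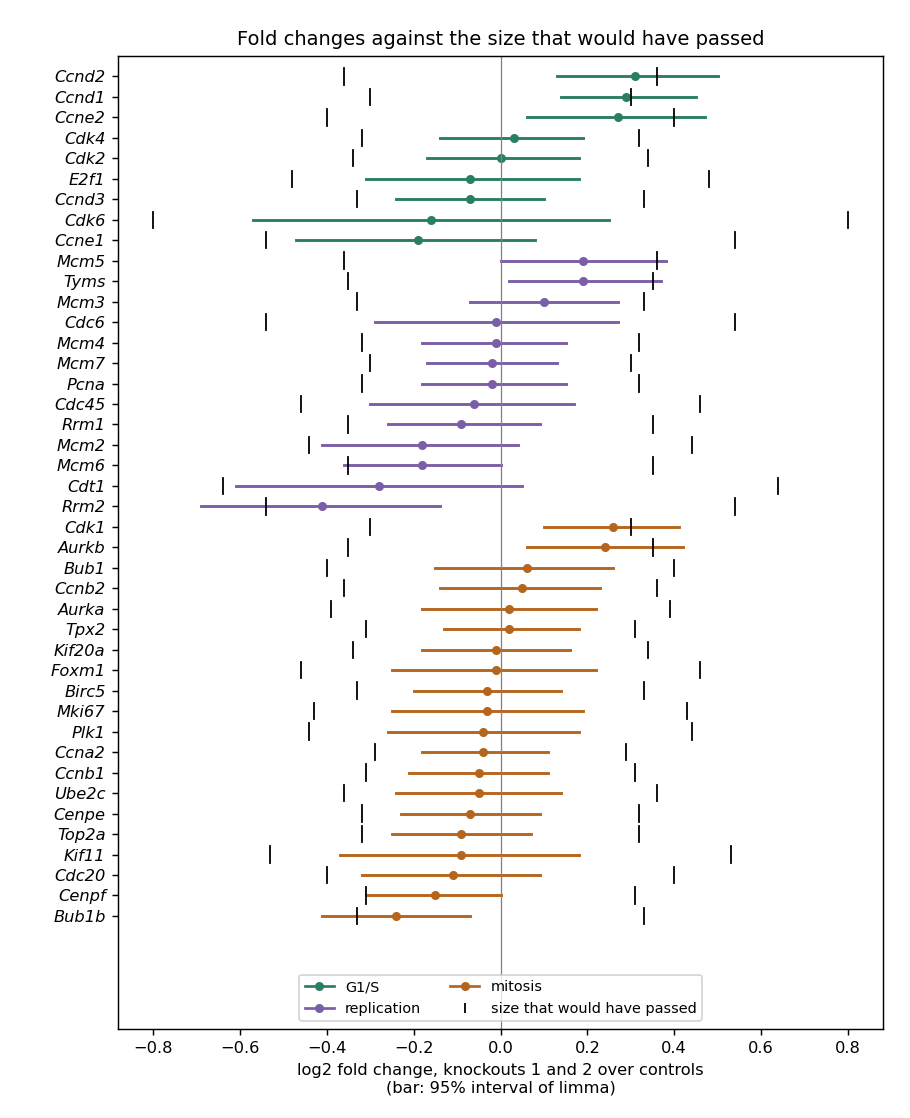
Log2 fold change of each of the 42 genes, knockouts 1 and 2 over 3 controls (dot), with the 95% interval of limma (bar) and, as black ticks, the size in either direction that would have passed the adjusted threshold at that gene's own error. No dot lies outside its ticks, and Ccnd1 at 0.29 comes closest to its tick at 0.30.

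Whole classes were as close. The G1/S class had a median log2 fold change of 0.00, the replication class -0.02 and the mitosis class -0.03, beside -0.01 over all genes. Genes above and below 0 numbered 5 and 4 in the G1/S class, 3 and 10 in replication and 6 and 14 in mitosis. Over all genes they numbered 6670 and 7173. Most genes of the replication and mitosis classes were thus below 0. The mean log2(value + 1) of the G1/S class was 6.618 and 6.622 in knockout 1 and knockout 2, 6.572 in the library labelled knockout 3, and 6.657, 6.542 and 6.523 in the controls. Both knockouts lay inside the range of the controls.

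For the replication class the mean log2 levels were 6.751 and 6.800 in knockout 1 and knockout 2, 6.832 in the library labelled knockout 3, and 6.921, 6.783 and 6.803 in the controls. Knockout 1 was below the lowest control and knockout 2 inside their range, and control 1 stood highest. The mitosis class had mean log2 levels of 6.898 and 6.952 in knockout 1 and knockout 2, 6.978 in the library labelled knockout 3, and 6.987, 6.920 and 6.924 in the controls. Here too knockout 1 was lowest and control 1 highest, and both come from litter 1.

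Given the spread of these 5 libraries, both knockouts would have stood above all controls with a rise of the class mean by 0.085 for G1/S, 0.110 for replication and 0.071 for mitosis on the log2 scale. A fall of the class mean by 0.053, 0.077 and 0.051 on that scale would have put both below all controls. The differences found were 0.046, -0.061 and -0.019. These are sizes that separate the libraries, not sizes that pass a test, because an exact two-sided permutation of 2 against 3 embryos cannot give a p under 0.2. Within litters, the knockout minus control difference of the class mean was -0.039 for G1/S, -0.171 for replication and -0.089 for mitosis in litter 1, and 0.080, 0.016 and 0.032 in litter 2. Over single genes, 25 of 42 had the same sign in both litters, or 59.5%, against 64.4% of all genes.

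**Figure D2:**
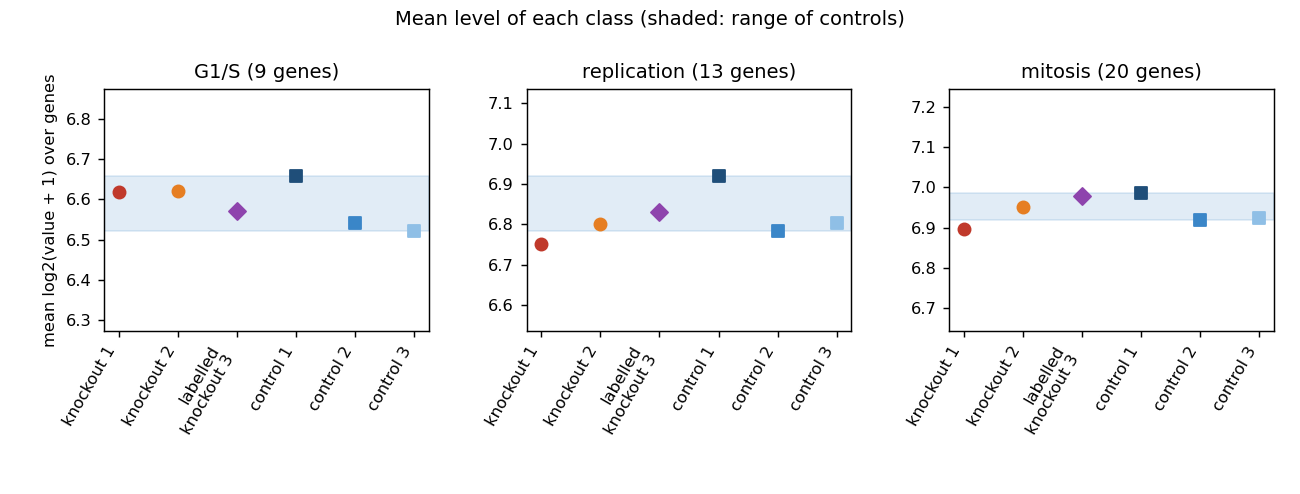
Mean log2(value + 1) over the genes of each class in each library, with the range of the 3 controls shaded. In the replication and mitosis panels knockout 1 is the lowest point and control 1 the highest, and in the G1/S panel both knockouts lie inside the shaded range.

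In the G1/S class, the D-type cyclins Ccnd1 and Ccnd2 had the smallest adjusted p, while Ccnd3 had one of 0.69 in limma. Ccnd1 (cyclin D1, chromosome 7, 144929931 to 144939925 on GRCm38), which is known to be raised by HIF in human kidney cancer cells that lack VHL, was at 174.6 and 185.0 in knockout 1 and knockout 2, 127.7 in the library labelled knockout 3, and 145.3, 150.3 and 144.1 in the controls. Both knockouts stood above all controls, while the library labelled knockout 3 stood below them. Its log2 fold change was 0.29 ± 0.07 (SE, 95% interval 0.14 to 0.45). The adjusted p was 0.055 in limma, 0.071 in edgeR and 0.0088 in DESeq2, and 0.0088 to 0.87 over 15 alternative settings. Here and in the ranges given below, the upper end came from the fit with all 6 libraries, in which no gene passed. The exons of Ccnd1 overlap those of a neighbour in the table, and the counting of strand is not given in the sources used here.

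Ccnd2 (cyclin D2, chromosome 6, 127125162 to 127152193), a partner of the same kinases, was at 515.4 and 519.5 in knockout 1 and knockout 2, 419.8 in the library labelled knockout 3, and 440.0, 424.6 and 386.0 in the controls. The groups of 2 and 3 did not overlap, and the library labelled knockout 3 lay among the controls. The log2 fold change was 0.31 ± 0.08, with an adjusted p of 0.080 in limma, 0.091 in edgeR and 0.0049 in DESeq2 (0.0049 to 0.77 over 15 settings). Ccnd3, the third D-type cyclin, was at 316.2 and 340.0 in the knockouts, 343.6 in the library labelled knockout 3, and 345.3, 356.0 and 330.7 in the controls, which overlap (log2 fold change -0.07 ± 0.07). Per kilobase of mRNA, Ccnd3 was the most abundant of the 3, with 53.9% and 55.0% of their sum in knockout 1 and knockout 2, 61.8% in the library labelled knockout 3, and 60.1%, 61.1% and 61.1% in the controls.

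Among E-type cyclins, which open S phase with Cdk2, Ccne2 was at 64.1 and 61.6 in knockout 1 and knockout 2, 56.3 in the library labelled knockout 3, and 51.5, 48.5 and 56.6 in the controls (log2 fold change 0.27 ± 0.09, adjusted p = 0.17 in limma). Its paralog Ccne1 was at 30.0 and 28.4 in the knockouts, 35.3 in the library labelled knockout 3, and 38.8, 30.9 and 31.5 in the controls (log2 fold change -0.19 ± 0.12, adjusted p = 0.46 in limma). Ccne2 stood above all controls in both knockouts and Ccne1 below them, neither past the threshold, and the ratio of Ccne2 to Ccne1 values was 2.14 and 2.17 in knockout 1 and knockout 2, 1.59 in the library labelled knockout 3, and 1.33, 1.57 and 1.8 in the controls. The kinase gene Cdk4 had the highest level per kilobase of the 42 genes in controls and was at 358.0 and 339.3 in the knockouts, 360.4 in the library labelled knockout 3, and 332.3, 356.9 and 337.5 in the controls. Cdk6, its paralog, was the lowest per kilobase, at 0.987 in the knockouts and 1.13 in the controls on average. The log2 fold changes of Cdk4, Cdk6, Cdk2 and the transcription factor gene E2f1, which switches on S-phase genes, were 0.03, -0.16, 0.00 and -0.07.

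**Figure D3:**
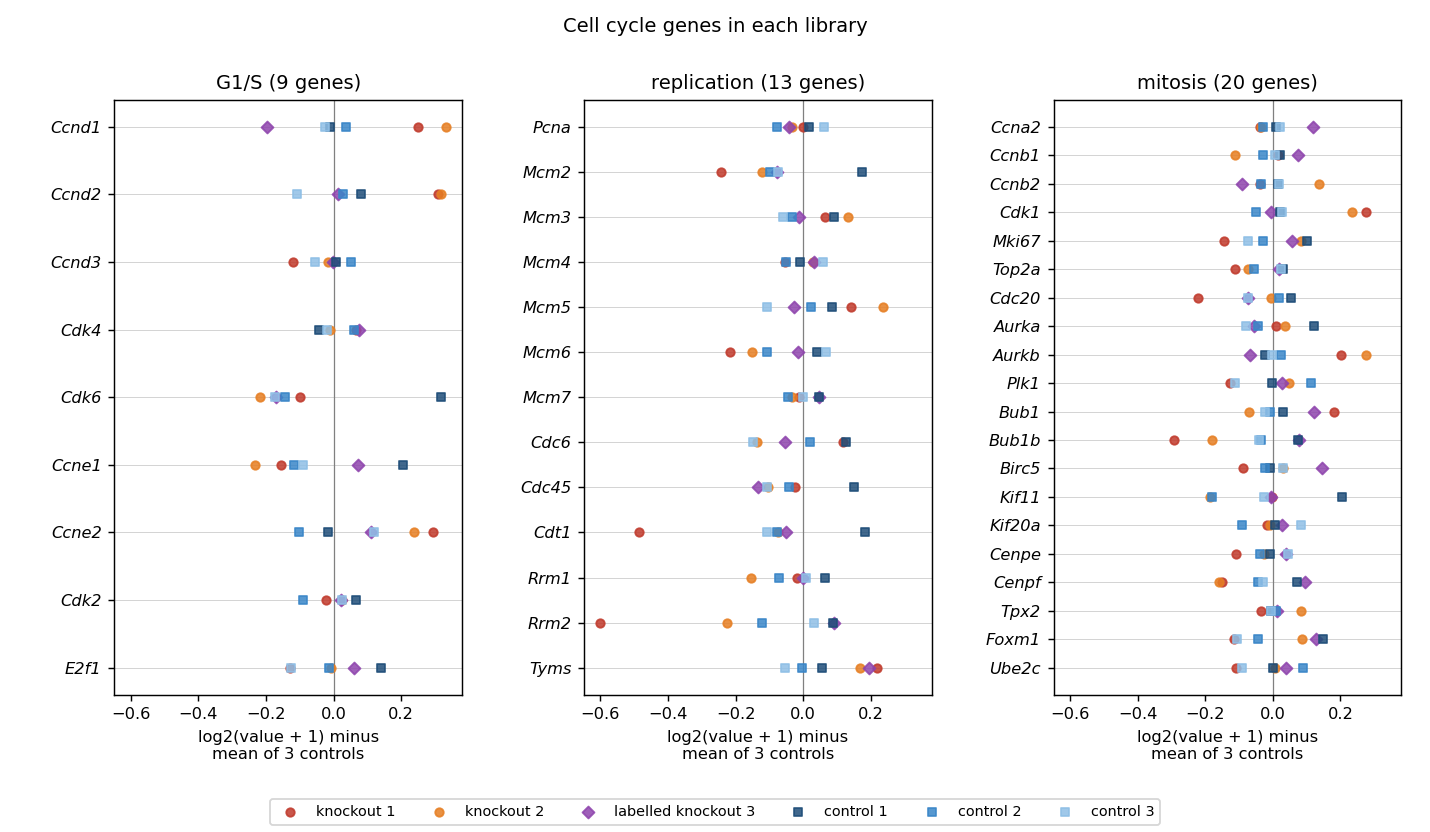
Deviation of each gene from its mean in the 3 controls, on the log2(value + 1) scale, in each of the 6 libraries. Circles are knockouts 1 and 2, the diamond is the library labelled knockout 3 and squares are controls. Ccnd1, Ccnd2, Cdk1 and Aurkb are among the 7 genes with both circles to the right of all squares. Rrm2 and Bub1b are among the 8 with both to the left. Over all genes of the table this held for 18.1% and 17.0%.

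In the replication class the gene farthest from the controls was Rrm2 (chromosome 12, 24708241 to 24714146), the small subunit of ribonucleotide reductase, which makes the building blocks of DNA. It was at 142.2 and 184.8 in knockout 1 and knockout 2, 230.6 in the library labelled knockout 3, and 230.3, 198.8 and 221.3 in the controls. Both knockouts lay below all controls, knockout 1 by far more than knockout 2. The log2 fold change was -0.41 ± 0.12 (95% interval -0.69 to -0.14), with an adjusted p of 0.11 in limma, 0.13 in edgeR and 0.033 in DESeq2. Without knockout 2 it was -0.60 and passed in limma (adjusted p = 0.044, range 0.033 to 0.82 over 15 settings), in a fit that called 1.7% of all genes higher and 0.397% lower. Its partner Rrm1, the large subunit, overlapped between groups with a log2 fold change of -0.09 ± 0.08. The ratio of Rrm2 to Rrm1 values was 0.544 and 0.778 in knockout 1 and knockout 2, 0.872 in the library labelled knockout 3, and 0.833, 0.789 and 0.832 in the controls.

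Log2 fold changes of the 6 subunits of the MCM helicase had mixed signs, and none passed the threshold. The helicase is a ring that opens the DNA ahead of the replication fork. Mcm5 was at 130.1 and 139.1 in knockout 1 and knockout 2, 115.7 in the library labelled knockout 3, and 125.0, 119.7 and 109.4 in the controls (log2 fold change 0.19 ± 0.08, adjusted p = 0.27 in limma). Mcm6 was at 163.3 and 170.8 in the knockouts, 187.8 in the library labelled knockout 3, and 195.0, 176.0 and 199.0 in the controls (-0.18 ± 0.08, adjusted p = 0.27 in limma). Mcm5 thus stood above the controls in both knockouts and Mcm6 below them, neither past the threshold. Of all genes, 35.1% had both knockouts above or both below all controls.

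Mcm2 was at 134.5 and 146.2 in the knockouts, 150.8 in the library labelled knockout 3, and 179.6, 148.8 and 151.0 in the controls, with control 1 well above the rest (log2 fold change -0.18 ± 0.10). Mcm3 was at 152.7 and 160.1 in the knockouts, 144.7 in the library labelled knockout 3, and 155.4, 142.6 and 139.9 in the controls. Both groups overlapped for Mcm3, as they did for the other two subunits. Mcm4 was at 135.5 and 143.6 in the knockouts, 144.1 in the library labelled knockout 3, and 139.9, 136.0 and 146.8 in the controls. Mcm7 was at 154.8 and 152.6 in the knockouts, 161.1 in the library labelled knockout 3, and 161.1, 151.0 and 156.0 in the controls, and its exons overlap those of neighbours in the table. The fold changes of Mcm3, Mcm4 and Mcm7 on the log2 scale were 0.10, -0.01 and -0.02. Per kilobase of mRNA the 6 subunits were close to even, each holding 14.6% to 20.4% of their sum in knockouts 1 and 2 and 12.3% to 20.1% in the controls.

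**Figure D4:**
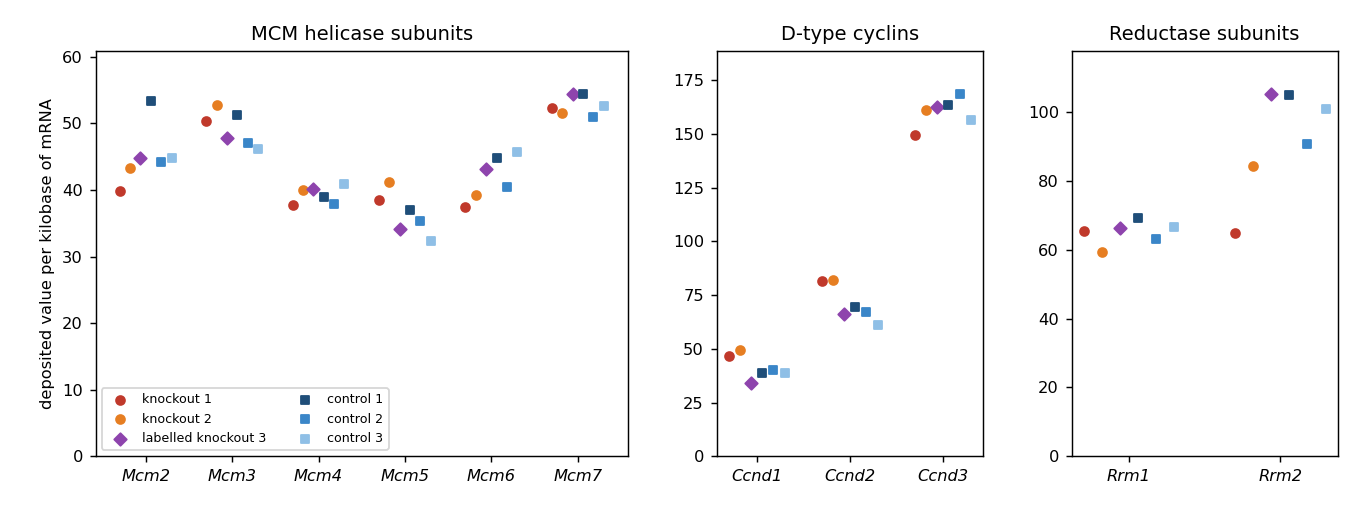
Deposited value per kilobase of mRNA for the MCM subunits, the D-type cyclins and the subunits of ribonucleotide reductase in each library, on axes that start at 0. Ccnd3 is the highest D-type cyclin in every library, and Rrm2 in knockout 1, at 64.9, lies well below the controls at 90.6 to 105.

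Of the other genes of the class none passed in limma, and Cdt1 was the farthest from the controls. Tyms, which makes thymidylate, was at 60.9 and 58.8 in the knockouts, 59.9 in the library labelled knockout 3, and 54.4, 52.1 and 50.2 in the controls, so that all 3 libraries labelled knockout lay above the controls (log2 fold change 0.19 ± 0.08, adjusted p = 0.24 in limma). Cdt1, a licensing factor that loads MCM rings, was at 35.2 in knockout 1 and 47.1 in knockout 2, 47.8 in the library labelled knockout 3, and 56.5, 46.99 and 45.9 in the controls (-0.28 ± 0.14). Only knockout 1 lay outside the range of the controls for Cdt1. Pcna, the sliding clamp of the polymerase and the highest gene of the class per kilobase, was at 212.6 and 207.5 in the knockouts, 206.3 in the library labelled knockout 3, and 214.9, 201.4 and 221.6 in the controls. The loading factor Cdc6 and the helicase activator Cdc45 had log2 fold changes of -0.01 ± 0.12 and -0.06 ± 0.10.

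The mitosis class held the proliferation markers in common use. Mki67, which encodes the antigen Ki-67, was at 478.1 and 561.0 in knockout 1 and knockout 2, 550.4 in the library labelled knockout 3, and 567.9, 518.2 and 502.7 in the controls, with the groups overlapping (log2 fold change -0.03 ± 0.10, 95% interval -0.25 to 0.19). Top2a, the topoisomerase that untangles chromosomes, was at 450.7 and 462.6 in the knockouts, 493.2 in the library labelled knockout 3, and 497.4, 468.5 and 494.4 in the controls (-0.09 ± 0.07). Both knockouts lay below the controls for Top2a, by less than the size that would have passed, 0.32.

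Cdk1 (chromosome 10, 69335146 to 69352938), the kinase of mitotic entry, was at 167.2 and 162.6 in knockout 1 and knockout 2, 137.4 in the library labelled knockout 3, and 140.0, 133.4 and 140.7 in the controls. Both knockouts stood above all controls, and the library labelled knockout 3 lay among them. Its log2 fold change was 0.26 ± 0.07 (95% interval 0.10 to 0.41), with an adjusted p of 0.082 in limma, 0.10 in edgeR and 0.034 in DESeq2 (0.034 to 0.77 over 15 settings). Its cyclin partners did not stand with it. Ccna2, cyclin A2, was at 224.8 and 225.6 in the knockouts, 251.1 in the library labelled knockout 3, and 232.3, 226.2 and 234.4 in the controls, and Ccnb1 and Ccnb2 had log2 fold changes of -0.05 ± 0.07 and 0.05 ± 0.08. The ratio of Cdk1 to Ccnb1 values was 0.952 and 1.01 in knockout 1 and knockout 2, 0.751 in the library labelled knockout 3, and 0.794, 0.784 and 0.805 in the controls.

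Of the other kinases, Aurkb, which corrects faulty attachments of chromosomes to the spindle, was at 48.7 and 51.3 in the knockouts, 40.2 in the library labelled knockout 3, and 41.5, 43.0 and 42.2 in the controls (log2 fold change 0.24 ± 0.08, adjusted p = 0.16 in limma). Bub1b, which encodes the spindle checkpoint protein BubR1, was at 117.5 and 127.1 in the knockouts, 152.1 in the library labelled knockout 3, and 151.9, 140.7 and 140.2 in the controls (-0.24 ± 0.07, adjusted p = 0.14 in limma). Aurkb thus stood above and Bub1b below the controls in both knockouts, and neither passed. Cenpf, a kinetochore protein gene, was at 152.8 and 151.9 in the knockouts, 181.2 in the library labelled knockout 3, and 178.4, 164.5 and 166.4 in the controls (-0.15 ± 0.07, adjusted p = 0.30 in limma). The other 11 genes of the class had log2 fold changes between -0.11, for the anaphase activator Cdc20, and 0.06, for the checkpoint kinase Bub1. They include the kinases Plk1 (-0.04) and Aurka (0.02), the spindle motors Kif11 (-0.09), Kif20a (-0.01) and Cenpe (-0.07), the spindle factor Tpx2 (0.02), the passenger protein gene Birc5 (-0.03), the ubiquitin-conjugating enzyme Ube2c (-0.05) and Foxm1 (-0.01), the transcription factor that switches on mitotic genes. Exons of Kif20a and Ccna2 overlap those of neighbours in the table, as do those of 9 of the 42 genes in all.

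Both knockouts stood above all controls for 7 of the 42 genes and below them for 8, where over all genes this held for 18.1% and 17.0%. In the library labelled knockout 3, 27 of the 42 genes lay inside the range of the controls, 10 above and 5 below. Of all 13843 genes 56.1% lay inside, with 3069 above and 3009 below. With all 6 libraries as labelled, limma called 0 of the 42, where 0.0% of all genes passed in either direction. At an unadjusted p under 0.05 there were 2 of the 42, where all genes gave 6.21%. With the same 6 libraries edgeR called 0 of the 42 and 0.0% of all genes in either direction. DESeq2 called 0 of the 42, where it called 0.0506% of all genes higher and 0.0289% lower. The smallest p that an exact permutation of 3 against 3 allows is 0.1, two-sided.

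None of 133 other genes of the cell cycle passed in limma, where 3.01% of all genes were higher and 1.24% lower. The 133 were 21 G1/S regulators, 45 genes of replication, 40 of the spindle and its checkpoint, 11 of cytokinesis and 16 of the anaphase-promoting complex. At an unadjusted p under 0.05 there were 5 of 133, or 3.76%, where all genes gave 17.8% and the 42 genes 23.8%. List medians of the log2 fold change were 0.05, -0.01, -0.04, -0.02 and 0.02 in that order. The smallest adjusted p of limma among the 133 was 0.11, for Cdc23.

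Among G1/S regulators, Tfdp2, a partner of E2F factors, was at 48.7 and 51.2 in knockout 1 and knockout 2, 64.4 in the library labelled knockout 3, and 63.6, 56.7 and 60.7 in the controls (log2 fold change -0.27 ± 0.08, adjusted p = 0.14 in limma). Myc, which answers growth factors, was at 18.8 and 25.8 in the knockouts, 14.7 in the library labelled knockout 3, and 10.8, 19.0 and 16.2 in the controls (0.53 ± 0.23). Both knockouts lay below the controls for Tfdp2, and the groups overlapped for Myc. The adjusted p of Myc in limma was 0.29, and 0.023 between littermates with litter as a block (log2 fold change 0.59), with a range of 0.023 to 0.82 over 15 settings.

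Pole, the catalytic subunit of a replicative polymerase, was at 57.3 and 54.5 in the knockouts, 66.5 in the library labelled knockout 3, and 70.8, 64.6 and 63.0 in the controls (log2 fold change -0.24 ± 0.08). Gins1, a helicase component, was at 13.9 and 16.3 in the knockouts, 15.1 in the library labelled knockout 3, and 19.7, 16.1 and 17.5 in the controls (-0.22 ± 0.13). Both knockouts lay below the controls for Pole only among these 2 genes. Wee1, a kinase that holds Cdk1 inactive, was at 28.9 and 28.4 in the knockouts, 35.4 in the library labelled knockout 3, and 39.8, 31.9 and 35.5 in the controls (-0.30 ± 0.11). Ckap2, which encodes a spindle protein, was at 55.6 and 53.0 in the knockouts, 50.2 in the library labelled knockout 3, and 44.7, 46.4 and 49.4 in the controls (0.21 ± 0.08). Wee1 stood below and Ckap2 above all controls in both knockouts.

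In the cytokinesis list, Racgap1, which organises the cleavage furrow, was at 141.9 and 146.8 in the knockouts, 164.6 in the library labelled knockout 3, and 163.8, 155.3 and 156.8 in the controls (log2 fold change -0.13 ± 0.07). Mybl2, a transcription factor gene of the mitotic programme, was at 30.3 and 31.7 in the knockouts, 29.1 in the library labelled knockout 3, and 28.6, 26.9 and 25.9 in the controls (0.19 ± 0.09). The anaphase-promoting complex is the ligase that ends mitosis. Its subunit gene Cdc23, whose exons overlap those of Kif20a, was at 106.6 and 109.5 in the knockouts, 122.5 in the library labelled knockout 3, and 126.5, 133.0 and 124.2 in the controls (-0.24 ± 0.07). Anapc7 was at 54.3 and 53.4 in the knockouts, 59.2 in the library labelled knockout 3, and 61.2, 60.2 and 58.9 in the controls (-0.16 ± 0.07). Both knockouts lay below the controls for Racgap1, Cdc23 and Anapc7 and above them for Mybl2, none past the threshold. The genes named from these lists were those with the smallest p. Of all 133, both knockouts stood above all controls for 12 and below them for 18, or 22.6%, against 35.1% of all genes.

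**Figure D5:**
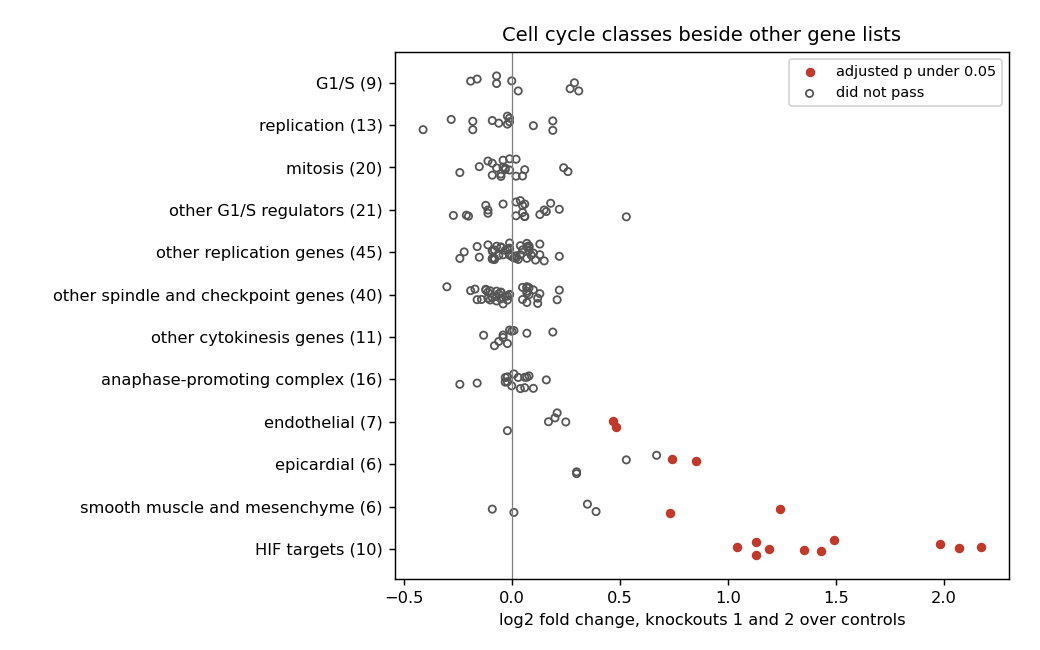
Log2 fold change of each gene, knockouts 1 and 2 over 3 controls, by list, with filled points for an adjusted p under 0.05 in limma. The 3 cell cycle classes and the 5 other cell cycle lists hold no filled point, whereas 10 of 10 HIF targets are filled.

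Markers of other cell types differed between the same libraries. Endothelial markers summed to 1361 and 1380 in knockout 1 and knockout 2, 1086 in the library labelled knockout 3, and 1188, 1165 and 1173 in the controls. Of these, 2 of 7 passed in limma, Emcn and Flt1, both higher, where 3.01% of all genes were higher and 1.24% lower. Epicardial markers summed to 457 and 419 in the knockouts, 298 in the library labelled knockout 3, and 305, 256 and 342 in the controls, with Wt1 and Upk1b of 6 higher. Smooth muscle and mesenchyme markers summed to 3146 and 2657 in the knockouts, 1403 in the library labelled knockout 3, and 1418, 1959 and 1991 in the controls. Of these 6 markers, Acta2 and Tagln were higher and the other 4 did not pass. Only 3 of the 6 had the same sign in both litters, against 64.4% of all genes. The same sign was found for 6 of 7 endothelial, 6 of 6 epicardial, 4 of 10 erythroid and 4 of 7 macrophage markers. Erythroid markers summed to 6952 and 15292 in the knockouts, 11268 in the library labelled knockout 3, and 11975, 14248 and 6319 in the controls, and macrophage markers to 33.6 and 37.0, 36.3, and 24.4, 42.7 and 60.7 in the same order, with 0 of 10 and 0 of 7 past the threshold. No marker of these lists was at 0 in any library. Their part in the cell cycle values was not tested, and in whole ventricles fewer cycling cells and less RNA per cycling cell cannot be told apart.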

How the data were processed

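Per the submitters' processing notes, the tools were CASAVA 1.8.2, cutadapt 1.3 and RSEM 1.2.3 on GRCm38; no source used here states the annotation, filter or scaling. In the authors' table the signal was a whole multiple of 1 step per library for 100% of values (tolerance 0.01 reads), and the steps equalled edgeR's TMM-scaled CPM at a ratio of 1 after rounding. Symbols, positions and mRNA lengths (longest coding transcript) came from GENCODE M21, which named 13675 genes and left 168 unnamed. Because the values were normalized, limma 3.58.1 with trend on log2(value + 1) in R 4.3.3 was the main test, and edgeR 4.0.16 and DESeq2 1.42.0 on recovered reads were alternatives. edgeR called 407 genes higher and 163 lower. All were tested on simulated data. Fold changes on that scale understate low genes. Genes given with every library were the 5 with the smallest p and the 2 highest per kilobase in each class (of the longest coding mRNA, a length chosen after the data were seen), the MCM subunits and the D-type and E-type cyclins; of each other list, the genes that passed or the 2 with the smallest p. Mki67 was added to these after its values were seen and was not among the genes tried under the alternatives. Others are named by role, ratio or position after their values were seen. The members and lists were chosen with earlier results of these data known. Litter labels pair the libraries of litters 1 and 2, whose deviations from the group means correlated at 0.20 and 0.28 over genes. Replicates are single embryos. Alternatives covered libraries, pseudocount, filter, scaling, variance model and tool.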

Additional observations from a re-analysis of the deposited data

How the results depend on the processing

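Among the 22 genes of the 42 given by rule, 325 of 330 values under 15 settings kept the call of the comparison, and the other 5 newly passed: Ccnd1 (0.30), Ccnd2 (0.31), Cdk1 (0.26) and Rrm2 (-0.41) under DESeq2, and Rrm2 (-0.60) without knockout 2. For all 22 genes the call of the comparison was that they did not pass. No gene of the table passed with all 6 libraries, so that setting could not change a call. Sign changes occurred in 7 values that passed in neither fit, and these were counted as kept. The number of the 42 that were higher was 3 under DESeq2 and 0 under each other setting, and leaving out 1 library gave 0 to 0. The number lower was 1 under DESeq2 and 0 to 1 when 1 library was left out, the 1 being Rrm2 without knockout 2. Over all genes, where 416 were higher and 172 lower, the counts were 235 and 82 without the trend, 681 and 444 with litter as a block (replicate block), 0 and 0 with all 6 libraries, and 146 to 297 and 44 to 90 when 1 library was left out. DESeq2 called 276 lower. The replicate block changed the call of 0 of the 42 genes. The median size that would have passed, 0.35, was 0.57 without the trend and 0.43 to 0.58 when 1 library was left out, where fewer samples were fitted. With all 6 libraries it could not be computed, since no gene passed. The class medians moved by less than the spread of the controls under every setting run. Where 1 knockout was left, it was assumed to vary like the controls. The cause of the other differences was not tested. Values low in reads, such as Cdk6, limit what could be seen.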
